A study of Mus musculus with 9 samples.

Results

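The 10 genes described here are parts of the circadian clock, the loop of transcription factors that gives tissues a daily rhythm. They were taken by symbol from a deposited table of 21989 genes, which lists all 10. Arntl, Npas2 and Nfil3 form one phase of the cycle (3 genes), and Dbp, Tef, Nr1d1, Nr1d2, Per1, Per2 and Per3 form the opposite phase (7 genes). Poly-A RNA of the heart was sequenced from 9 male mice of the strain C57BL/6J, 3 per group, at an age of 18 to 20 weeks. Sham mice had a sham operation and were given distilled water. TAC mice had the operation that the labels abbreviate so, usually read as transverse aortic constriction, which loads the left ventricle with pressure, and were also given distilled water. LD mice had the same operation and were given Lingguizhugan decoction, a Chinese herbal preparation. The mice were bought at 8 to 10 weeks of age and lived under a 12-h light and dark cycle. The labels give no hour of operation, dosing or tissue collection, so no value below can be set against the time of day.

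In the core loop of the clock, BMAL1, the protein of Arntl, pairs with CLOCK or with its relative NPAS2 and switches on genes that carry E-box elements, among them the Per, Cry and Nr1d genes, Dbp and Tef. The PER and CRY proteins block that pair, and the REV-ERB proteins, made from Nr1d1 and Nr1d2, repress Arntl, Npas2 and Nfil3 through ROR response elements. NFIL3 and the related activators DBP and TEF compete for D-box elements. In mouse tissues outside the brain, Arntl and Npas2 transcripts peak around the start of the light phase, Nr1d1 and Dbp later in the light phase, and Per2 around nightfall.

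Values are FPKM, a count of fragments divided by the gene's length and the size of its library. Library totals recovered from them lay between 7.41 and 18.1 M counts. Among genes with recovered counts from 4 to 50, even counts made up 90.1 to 91.9% in 4 libraries (sham replicates 1 and 3, TAC replicates 2 and 3) and 47.1 to 57.6% in the other 5. All 3 LD libraries were among those 5, and the labels name no such split. On the first principal component (29.4% of the variance), TAC replicate 3 (-51) and LD replicate 3 (48.3) stood apart from the other 7 libraries (-10.4 to 17.1). The 6 heart muscle markers summed to 20600 to 36900 FPKM over the libraries, whereas 5 adipocyte markers (Plin1 listed at 0 throughout) and 5 T cell markers summed to at most 1.72 and 1.31.

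The hearts of LD mice had the lowest Arntl and Nfil3 and the highest Dbp and Nr1d1 of the study. For these 4 genes no LD library overlapped any of the 6 libraries of water-treated mice. Npas2, Tef, Nr1d2, Per1, Per2 and Per3 did overlap with them. The share of all genes without such overlap was not counted for the 6 libraries together. Shares of all genes for each pair of groups are given below. No member passed the threshold of the test over all genes (limma, Benjamini-Hochberg adjusted p under 0.05) in any comparison, and neither did any other gene. The differences below are therefore given as values with their errors. In bulk tissue, fewer cells of a type and less RNA per cell cannot be told apart.

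**Figure D1:**
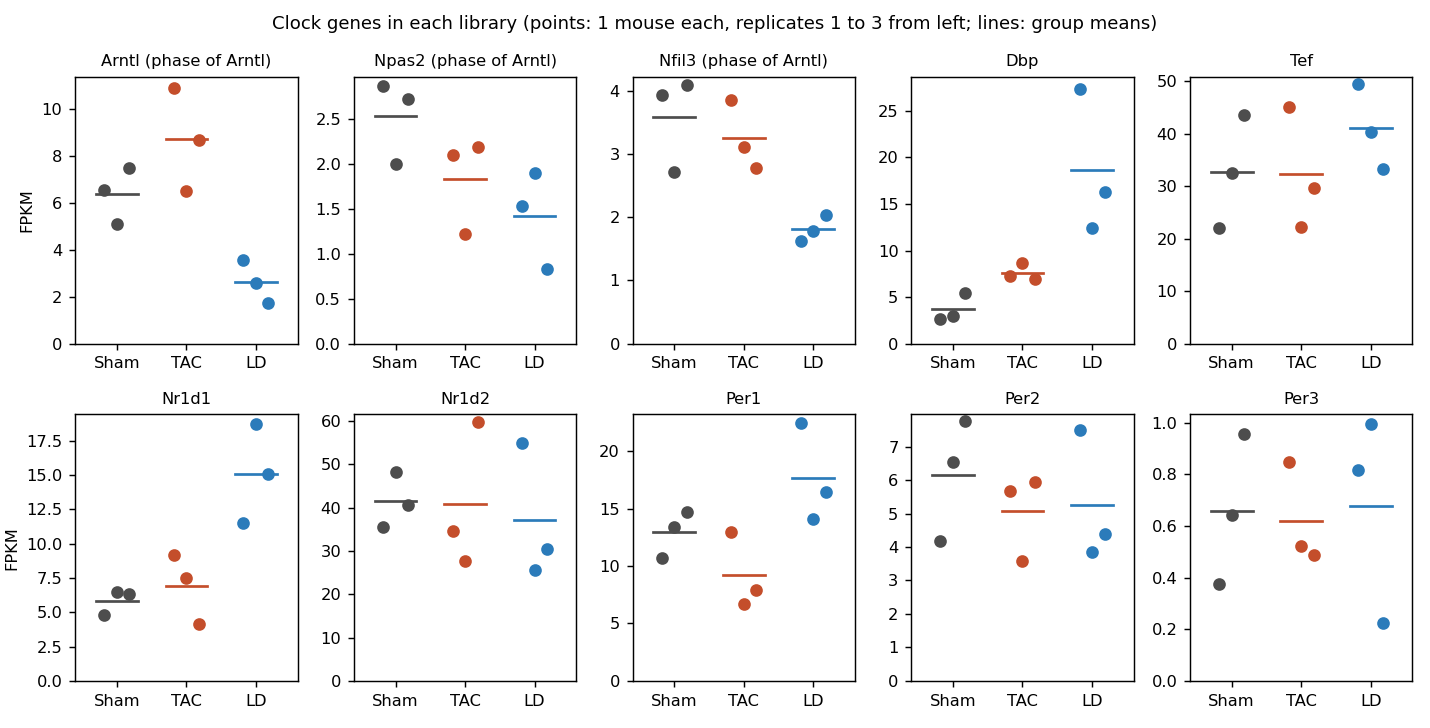
FPKM (linear axes from 0) of the 10 clock genes in each mouse, by group, with lines at the group means. The LD points of Arntl (1.75 to 3.58) and Nfil3 (1.62 to 2.04) lie below all others, and those of Dbp (12.4 to 27.4) and Nr1d1 (11.5 to 18.7) above all others.

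Arntl, the activator on which the loop turns (chromosome 7, 113207465 to 113314126 on GRCm38, plus strand), stood at 6.56, 5.08 and 7.47 FPKM in sham replicates 1, 2 and 3. It stood at 10.9, 6.52 and 8.68 in TAC and at 3.58, 2.6 and 1.75 in LD. Every LD value was below every sham and TAC value, and TAC overlapped sham. Between LD and TAC it differed by -1.42 ± 0.29 on the scale of log2(FPKM + 1) (standard error, SE; limma adjusted p = 0.331), rank 8 of the 11380 genes tested when ordered by p. Between LD and sham it differed by -1.03 ± 0.29 (adjusted p = 0.713), and between TAC and sham by 0.38 ± 0.29 (95% interval -0.24 to 1.01). The counts behind these values ran from 152 to 680 per library.

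Npas2, which can take the place of CLOCK beside BMAL1, was the lowest of the 9 tested members in each group. It stood at 2.87, 2.0 and 2.73 FPKM in sham, 2.1, 1.22 and 2.19 in TAC and 1.53, 1.90 and 0.835 in LD. LD lay below sham without overlap but shared its range with TAC. The log2 difference was -0.56 ± 0.30 between LD and sham (limma adjusted p = 0.875) and -0.23 ± 0.30 between LD and TAC. The ratio of Npas2 to Arntl, both in FPKM, was 0.366 to 0.438 in sham, 0.187 to 0.253 in TAC and 0.429 to 0.732 in LD, with every TAC mouse below every sham and LD mouse.

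Nfil3, the repressor at D-boxes, stood at 3.93, 2.71 and 4.09 FPKM in sham and 3.85, 3.11 and 2.78 in TAC. In LD it was 1.62, 1.78 and 2.04, below all other libraries. Its log2 difference was -0.69 ± 0.27 against sham (adjusted p = 0.875) and -0.59 ± 0.27 against TAC (adjusted p = 0.563). It was also the steadiest member between mice of a group, with a within-group SD of 0.19 on the log2 scale beside 0.37 for the median gene tested.

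Among the RefSeq promoter windows of the members (GRCm38.p6; 12 windows of 9 members, none for Per2), each from 250 bases before to 50 after a start, a ROR response element was found in 1 of 2 windows of Arntl and in no other member. The pattern searched on both strands was A or T, A, A or T, any base, T, A or G, then GGTCA. It occurs in 0.384% of the 32851 windows of all genes. The stretch is shown because REV-ERB proteins are known to act on Arntl through such elements. It lies at chr7:113207527-113207556, plus strand, in a UTR exon of Arntl, with the match in capitals from base 27 after the start:
Arntl: gggaaggcagAAAGTAGGTCAgggacggag

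Dbp, a PAR bZIP activator of output genes (chromosome 7, 45705088 to 45710203, plus strand), had the widest range of the members. It stood at 2.63, 2.98 and 5.44 FPKM in sham, 7.22, 8.66 and 6.90 in TAC and 27.4, 12.4 and 16.3 in LD. The 3 groups formed 3 separate steps, with TAC above sham and LD above both. The highest library held 10.4 times the level of the lowest. The log2 difference was 2.05 ± 0.32 between LD and sham (limma adjusted p = 0.0667, rank 3 of all genes). It was 1.13 ± 0.32 between LD and TAC (adjusted p = 0.515) and 0.92 ± 0.32 between TAC and sham (adjusted p = 0.772). In 4 of 23 alternative settings Dbp passed between LD and sham, with adjusted p over all 23 from 0.00332 to 0.651. These 4 were a filter at 5 FPKM (0.0424), a fit of only these groups (0.0413), weights for library quality (0.00332) and leaving out TAC replicate 1 (0.0434). With these weights the difference between LD and TAC was 0.74.

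Tef, the other PAR bZIP activator of the list, was among the 2 highest members in every group and overlapped in all 3 comparisons. It stood at 22, 32.5 and 43.5 FPKM in sham, 45.1, 22.3 and 29.6 in TAC and 49.4, 40.3 and 33.3 in LD. Its log2 difference was 0.35 ± 0.31 between LD and sham (95% interval -0.31 to 1.01). The ratio of Tef to Dbp within a library was 8.01 to 10.9 in sham, 2.57 to 6.24 in TAC and 1.8 to 3.26 in LD. An E-box (CACGTG, the same on both strands, in 7.15% of all windows) was found in both Tef windows and in 1 of 2 Per1 windows, and in no other member. The Tef stretch of 250 bases before a start lies in an intron of Tef at chr15:81811164-81811413, plus strand, with the E-box in capitals:
Tef: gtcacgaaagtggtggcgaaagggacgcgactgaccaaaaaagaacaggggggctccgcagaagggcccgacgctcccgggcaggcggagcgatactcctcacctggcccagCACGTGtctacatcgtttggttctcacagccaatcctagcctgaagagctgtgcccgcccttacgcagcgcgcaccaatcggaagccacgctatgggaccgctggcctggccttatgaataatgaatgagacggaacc

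Nr1d1, which encodes REV-ERB alpha (chromosome 11, 98767932 to 98775333, minus strand), stood at 4.79, 6.47 and 6.32 FPKM in sham. It stood at 9.17, 7.51 and 4.12 in TAC and at 11.5, 18.7 and 15.1 in LD. All LD values were above all others, while TAC spanned the sham range. The log2 difference was 1.22 ± 0.30 between LD and sham (adjusted p = 0.507) and 1.06 ± 0.30 between LD and TAC (adjusted p = 0.52). Its exons share 263 bases with those of Thra, a thyroid hormone receptor gene on the opposite strand. The labels name no step that marks the strand, so reads of that stretch cannot be told apart. Thra itself stood at 31.2 to 40.7 FPKM in sham, 24.2 to 40.9 in TAC and 23.4 to 36.2 in LD, overlapping in all 3 groups. Dbp likewise shares 539 exon bases with Sphk2 on the opposite strand, which stood at 7.15, 8.28 and 12.8 in LD and between 4.46 and 8.09 elsewhere.

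Nr1d2, which encodes the related REV-ERB beta, did not follow Nr1d1. It stood at 35.6, 48.2 and 40.6 FPKM in sham, 34.7, 27.7 and 59.8 in TAC and 55.0, 25.7 and 30.5 in LD, with overlap throughout. Its log2 difference was -0.22 ± 0.32 between LD and sham (95% interval -0.92 to 0.47) and -0.14 ± 0.32 between LD and TAC (-0.83 to 0.56). Nr1d2 was 6.42 to 7.45 times the level of Nr1d1 per length in sham, 3.69 to 14.5 times in TAC and 1.37 to 4.76 times in LD.

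The Per genes encode the repressors that close the loop. Per1 stood at 10.7, 13.4 and 14.7 FPKM in sham, 13.0, 6.73 and 7.90 in TAC and 22.4, 14.1 and 16.4 in LD. LD was above TAC without overlap and shared its range with sham. The log2 difference was 0.89 ± 0.29 between LD and TAC (adjusted p = 0.537) and 0.40 ± 0.29 between LD and sham. Per2 stood at 4.19, 6.55 and 7.75 in sham, 5.66, 3.59 and 5.95 in TAC and 7.50, 3.84 and 4.40 in LD, and its log2 difference between LD and TAC was 0.02 ± 0.31 (95% interval -0.65 to 0.70). Per3 was below 1 FPKM in every library, from 0.224 to 0.993, so it did not enter the test, and its group means were 0.659 ± 0.290 (SD, n = 3) in sham, 0.618 ± 0.199 in TAC and 0.677 ± 0.403 in LD. Its length recovered from the table, 17027 bases, is 1.77 times the annotated exon length, and FPKM divides by the length. For Nfil3 this ratio was 2.46, and for the other 8 members 0.67 to 1.31.

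The Per1 and Per3 stretches are shown because E-boxes and D-boxes are the elements through which BMAL1 and the PAR bZIP factors are known to act. Each covers 250 bases before a start, with matches in capitals. The E-box of Per1 (capitals below) begins at base -166 from the start, in an intron of Per1 (chr11:69098699-69098948, plus strand). The D-boxes of Per3 (TTA, any base, GTAA, searched on both strands and in 2.32% of all windows) begin at -205 and -158, in an intron of Camta1, the neighbouring gene (chr4:151044666-151044915, minus strand). No D-box was found in the windows of the other members. A match describes letters only:
Per1: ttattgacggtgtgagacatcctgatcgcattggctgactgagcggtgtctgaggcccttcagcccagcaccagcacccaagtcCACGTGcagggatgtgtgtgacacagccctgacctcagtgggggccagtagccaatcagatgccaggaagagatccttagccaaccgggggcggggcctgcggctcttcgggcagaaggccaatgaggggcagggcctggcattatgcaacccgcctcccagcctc
Per3: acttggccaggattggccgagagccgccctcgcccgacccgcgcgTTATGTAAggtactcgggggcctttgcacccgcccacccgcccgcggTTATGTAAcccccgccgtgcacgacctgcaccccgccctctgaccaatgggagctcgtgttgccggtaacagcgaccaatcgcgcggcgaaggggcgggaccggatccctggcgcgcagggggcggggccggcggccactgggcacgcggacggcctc

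No member passed the adjusted threshold between LD and TAC (0% of all genes tested by limma passed, and 0 genes by voom on recovered counts). The groups did not overlap for 5 of the 9 tested members, Arntl and Nfil3 lower and Dbp, Nr1d1 and Per1 higher, beside 11.9% of all genes (8.14% lower, 3.73% higher). The same 5 had an unadjusted p under 0.05, beside 8.82% of all genes, or 1004 genes (6.31% lower, 2.51% higher).

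Between LD and sham, again 0 members and 0% of genes passed by limma, and 3 genes but 0 members by voom. Here 5 of 9 members did not overlap, Arntl, Npas2 and Nfil3 lower and Dbp and Nr1d1 higher, beside 13.2% of all genes (8.76% lower, 4.47% higher). All of these but Npas2, 4 members, had an unadjusted p under 0.05, beside 5.11% of all genes, or 581 genes (3.59% lower, 1.52% higher). The comparisons of LD with TAC and with sham share the LD libraries, so their likeness is no separate result.

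From sham to TAC, 0 members and 0% of genes passed by limma, and 4 genes but 0 members by voom. Dbp was the 1 member of 9 that did not overlap, beside 9.84% of all genes (5.22% higher, 4.62% lower). It was also the 1 member with an unadjusted p under 0.05, beside 5.43% of all genes, or 618 genes (2.85% higher, 2.58% lower). In the test of any difference between the 3 groups, 5 members had an unadjusted p under 0.05 beside 6.76% of all genes, and 0 passed the adjusted threshold (0% of genes). By that test the members were led by Dbp (limma adjusted p = 0.206) and Arntl (adjusted p = 0.385).

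In the LD comparisons the medians of the phases had opposite signs. The median of the 3 genes in the phase of Arntl was -0.59 between LD and TAC and -0.69 between LD and sham, beside -0.10 and -0.11 for all genes. The median of the 6 tested genes of the opposite phase was 0.63 and 0.38. Between TAC and sham the medians were -0.10, -0.05 and 0.00.

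**Figure D2:**
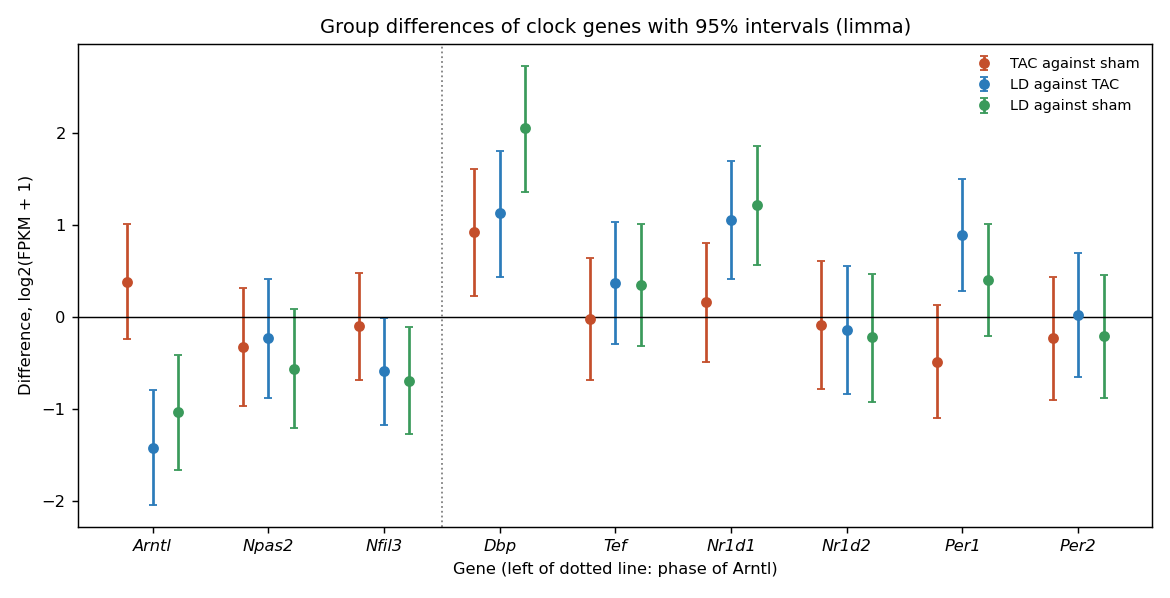
Differences between groups on the log2(FPKM + 1) scale for the 9 tested clock genes, with 95% intervals from limma; the phase of Arntl is left of the dotted line. The blue (LD against TAC) and green (LD against sham) points of Arntl (-1.42 and -1.03) lie below 0 and those of Dbp (1.13 and 2.05) above it, while Nr1d2 and Per2 lie near 0 in every comparison.

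Ratios between members within a library do not depend on how libraries are scaled. The ratio of Dbp to Arntl was 0.401, 0.586 and 0.728 in sham, 0.665, 1.33 and 0.796 in TAC and 7.66, 4.75 and 9.30 in LD. The ratio of Nr1d1 to Arntl was 0.730, 1.28 and 0.846 in sham, 0.844, 1.15 and 0.474 in TAC and 3.23, 7.19 and 8.62 in LD. In both ratios every LD mouse stood above every other mouse. This was fixed in advance by the levels and is no separate result. The LD libraries lay below all others for Arntl and above all others for Dbp and Nr1d1. Every LD mouse was also highest for Per1 over Arntl, 5.40 to 9.35 in LD and 0.911 to 2.64 elsewhere. Per2 over Arntl was 1.48 to 2.51 in LD and 0.521 to 1.29 elsewhere. All these ratios share the low Arntl values of LD, and the share of all gene pairs that part so was not counted. The Per2 level itself overlapped between all groups, while the Arntl level of LD overlapped with neither other group.

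**Figure D3:**
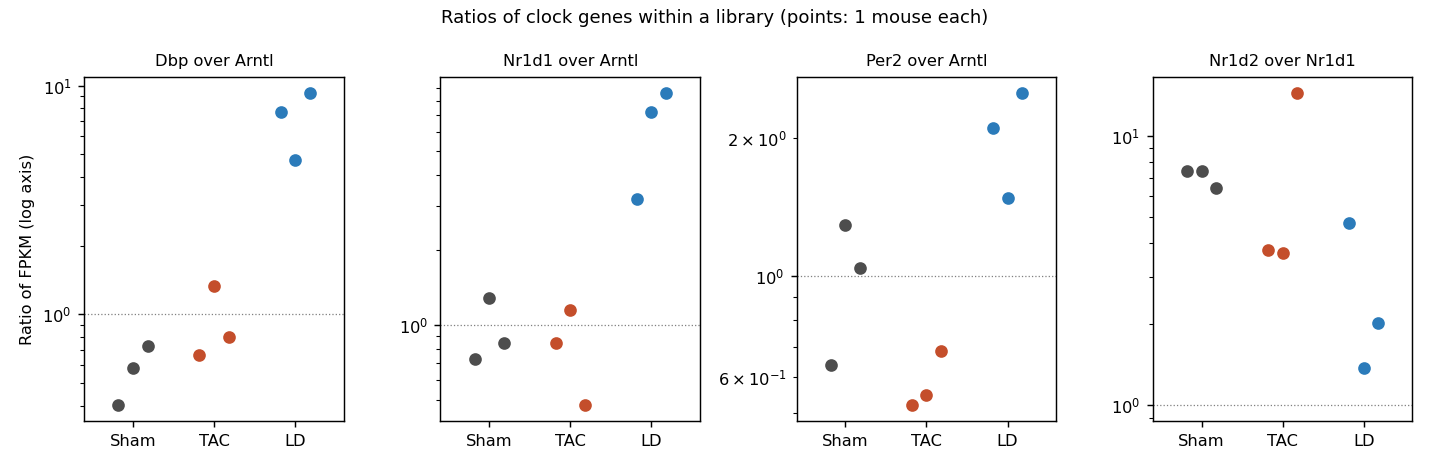
Ratios of FPKM between clock genes within each library, on log axes, 1 point per mouse, with a dotted line at 1. The LD points of Dbp over Arntl (4.75 to 9.30) and Nr1d1 over Arntl (3.23 to 8.62) are above all others, and the lowest Nr1d2 over Nr1d1 is in LD (1.37).

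All 3 LD libraries have mixed counts, and only 1 sham and 1 TAC library share that class, so LD and the split can be told apart only in small part. Among these 5 libraries, with no test, the LD values of Arntl, Npas2 and Nfil3 lay below the 1 sham and 1 TAC value, those of Dbp, Nr1d1 and Per1 lay above them, and the other 4 members overlapped. The share of all genes that part in this way was not counted, so these members cannot be set against it. In a fit with a term for the split, the log2 difference between LD and sham was 2.17 ± 0.41 for Dbp, -1.06 ± 0.38 for Arntl, 0.94 ± 0.37 for Nr1d1, -0.65 ± 0.35 for Nfil3 and 0.07 ± 0.37 for Tef. The differences of LD from TAC were 1.25 ± 0.41 for Dbp, -1.44 ± 0.38 for Arntl, 0.78 ± 0.37 for Nr1d1, 0.61 ± 0.34 for Per1, -0.54 ± 0.35 for Nfil3 and 0.09 ± 0.37 for Tef. With that term the unadjusted p was no longer under 0.05 for Nfil3 in either comparison, nor for Nr1d1 and Per1 between LD and TAC. The limma adjusted p was 0.999 for every tested member between LD and TAC, and 0.275 for Dbp between LD and sham. The part of the split in these values was not tested further. Without TAC replicate 3 and LD replicate 3 together, Arntl differed by -1.22 ± 0.32 between LD and TAC and Nr1d1 by 0.76 ± 0.30.

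Whether the phases move inversely from mouse to mouse was asked through the 45 pairs of members, with Pearson's r and Spearman's rho of log2(FPKM + 1) and exact two-sided permutation tests. After Benjamini-Hochberg adjustment 0 of the 45 pairs passed, and 9 had an unadjusted p under 0.05. The 3 pairs within the phase of Arntl had r from 0.61 to 0.81. Over all 9 libraries Arntl and Nr1d1 had r = -0.77 (rho = -0.70; exact permutation p = 0.0175 and 0.0433, adjusted p = 0.157 and 0.195). Without the 2 libraries farthest from the median of Arntl, LD replicates 2 and 3, r was -0.39. Leaving out the most extreme values also narrows the range of Arntl, so how far the relation rests on them cannot be told. Of 21 pairs between the phases, 13 were negative (median r -0.12). When deviations from the group means were correlated instead, only 5 of the 21 were negative (median 0.22), and Arntl and Nr1d1 had r = -0.12 (exact within-group permutation p = 0.796). The other 16 were positive. The median over all libraries depended on the scaling, at -0.23 with median-of-ratios scaling and 0.03 with equal sums.

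Tef and Per1 had r = 0.77 over all libraries (rho = 0.73; exact permutation p = 0.0146 and 0.0311, adjusted p = 0.157 and 0.195; 0.68 without the 2 farthest) and r = 0.86 for deviations from group means (exact within-group permutation p = 0.0185, adjusted p = 0.333). Nr1d2 and Per2 had r = 0.80 (rho = 0.78; exact permutation p = 0.0147 and 0.0172, adjusted p = 0.157 and 0.195; 0.84 without the 2 farthest) and 0.80 within groups. LD replicate 1 shows this in single values, with the highest Tef and Per1 of the study and the highest Nr1d2 and Per2 of its group. Nr1d1 and Nr1d2 had r = -0.54 (rho = -0.62; exact permutation p = 0.132 and 0.0857, adjusted p = 0.37 and 0.297; -0.12 without the 2 farthest) and -0.73 within groups.

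**Figure D4:**
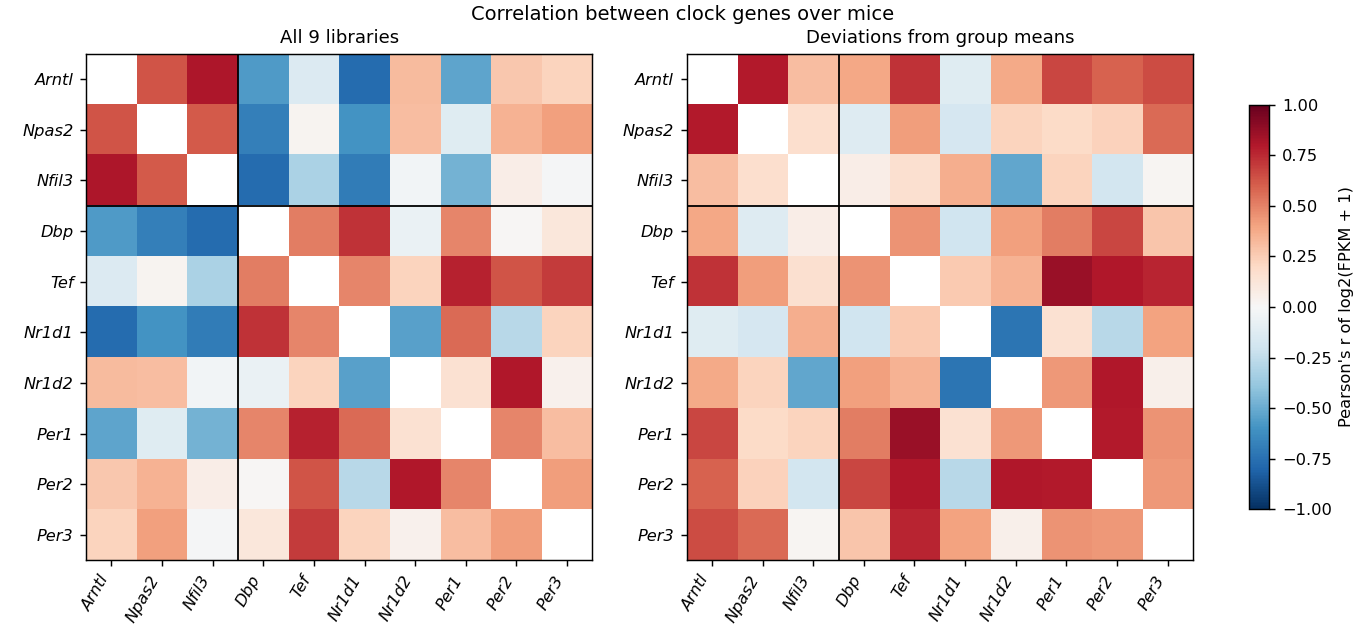
Pearson's r between clock genes over all 9 libraries (left) and of deviations from group means (right), red for positive and blue for negative; black lines part the phases. The darkest blue cells between the phases on the left (r of Arntl and Nr1d1 -0.77) are paler on the right (-0.12), where 16 of 21 pairs between phases are positive.

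Of 20 other clock genes, all in the table, 18 were tested and 0 passed. In LD against TAC 12 were below 0, beside 6875 of all 11380 genes (median -0.20, beside -0.10). An unadjusted p under 0.05 was found for 1 of the 18, a share below the 8.82% of all genes. This was Clock, the usual partner of BMAL1, at 7.61, 5.74 and 4.64 FPKM in sham, 5.57, 6.55 and 10.4 in TAC and 5.81, 4.19 and 2.45 in LD (log2 difference -0.74 ± 0.32, limma adjusted p = 0.547). Between LD and sham 14 were below 0, beside 7147 of all genes (median -0.15, beside -0.11), and 0 had an unadjusted p under 0.05. The repressor gene Cry1 stood at 4.25 to 8.75 in sham, 3.02 to 10.7 in TAC and 1.84 to 3.77 in LD. Its LD values overlapped with TAC but not with sham (log2 difference between LD and sham -0.76 ± 0.40, limma adjusted p = 0.875). Its paralogue Cry2 had the opposite sign, at 2.76 to 7.43 in sham, 6.49 to 7.62 in TAC and 6.35 to 9.36 in LD with overlap (log2 difference between LD and sham 0.60 ± 0.31, limma adjusted p = 0.875). Against sham, 1 of 18 had in TAC an unadjusted p under 0.05 (5.43% of all genes), Bhlhe40, a repressor that binds E-boxes, at 3.94 to 4.66 in sham and 6.38 to 7.45 in TAC (log2 difference 0.61 ± 0.28, limma adjusted p = 0.909). Hlf, another PAR bZIP gene, was lower in TAC and LD than in sham without overlap, at 2.57 to 3.44 in sham, 0.269 to 2.40 in TAC and 0.976 to 2.29 in LD. Between LD and sham 2 of the 18 were lower without overlap and 0 higher, beside 8.76% and 4.47% of all genes. Between TAC and sham 1 was lower and 2 higher by that measure, beside 4.62% and 5.22%.

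All 21 clock output genes were tested and 0 passed. In LD against TAC, 4 of 21 had an unadjusted p under 0.05 with a lower value and 2 with a higher one, beside 6.31% and 2.51% of all genes. Pdk4, the kinase that restrains glucose oxidation, stood at 310, 279 and 306 FPKM in LD, below 384, 637 and 638 in TAC and 455, 548 and 444 in sham (log2 difference against TAC -0.85 ± 0.24, limma adjusted p = 0.495). Lonrf3 (-0.88 ± 0.28) was also lower without overlap, and Coq10b (-0.82 ± 0.33) was lower with overlap. Lonrf3 was a low gene, at 0.969 to 1.32 FPKM in sham, 1.62 to 1.96 in TAC and 0.353 to 0.774 in LD. It met the filter of 1 FPKM only through sham and TAC libraries, so its lower LD value carries little weight. Tspan4 (0.92 ± 0.30) and the cold-inducible RNA-binding protein gene Cirbp (0.56 ± 0.26) were higher without overlap. Between LD and sham, 3 had an unadjusted p under 0.05 with a lower value (Pdk4, Coq10b and Cdkn1a) and 1 with a higher one (Cirbp, 0.65 ± 0.26), beside 3.59% and 1.52% of all genes. In TAC against sham, 2 had a lower value with an unadjusted p under 0.05 (2.58% of all genes) and 0 a higher one, among the former Dgat2, an enzyme of triglyceride synthesis (log2 difference -0.70 ± 0.30, limma adjusted p = 0.903).

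**Figure D5:**
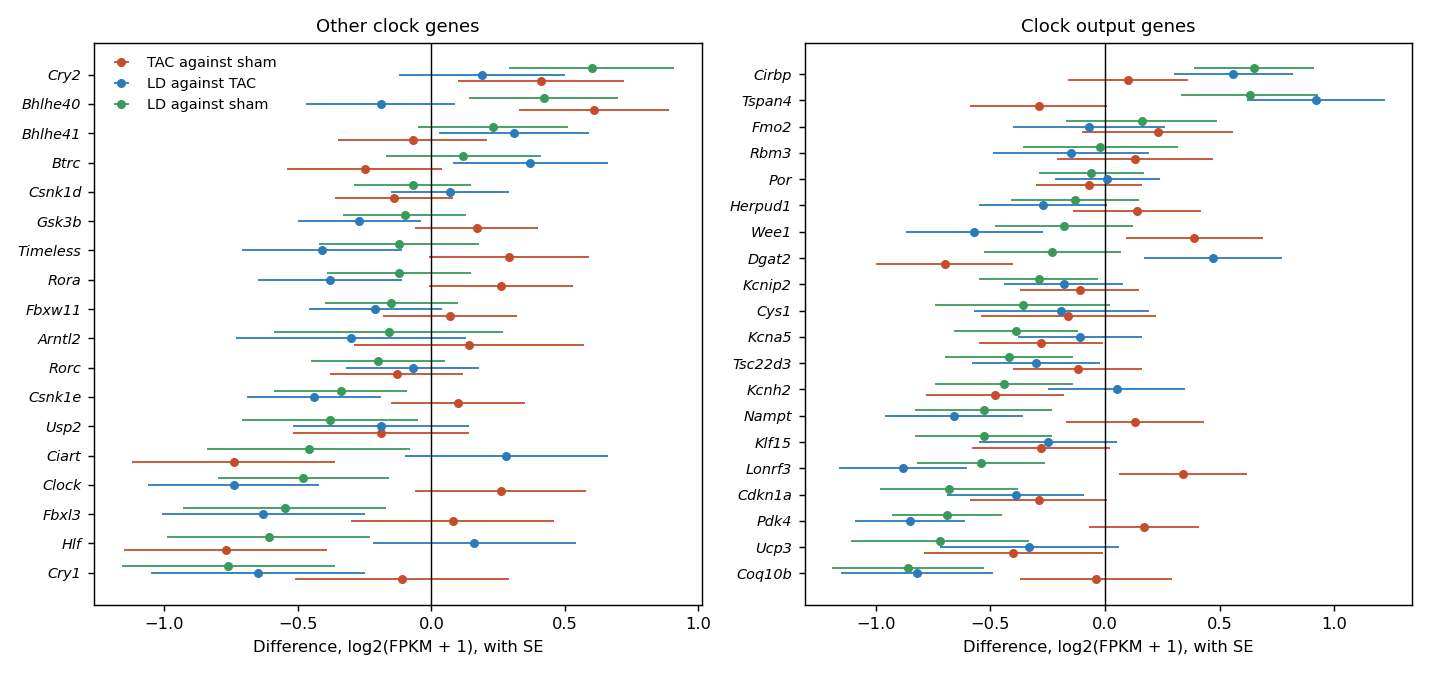
Differences between groups on the log2(FPKM + 1) scale, with standard errors, for 18 other clock genes (left) and 20 of the 21 clock output genes (right), ordered by LD against sham. Clock (-0.74 against TAC) and Pdk4 (-0.85 against TAC) lie left of 0, and Cirbp and Tspan4 in LD to the right; the median of all genes lies at -0.10 and -0.11 in the LD comparisons.

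Likeness to the pattern of the members was measured with a score per library, the mean over members of standardized log2 values with the sign of the opposite phase reversed. The score was 0.91, 0.02 and 0.01 in sham, 0.09, 0.57 and 0.33 in TAC and -1.09, -0.42 and -0.41 in LD. Members followed it unequally, though each is part of it. Their r to the score ran from 0.43 (Npas2) to 0.78 (Nfil3) in the phase of Arntl. In the opposite phase it ran from -0.83 (Per1) to -0.17 (Nr1d2). Of 11371 other genes over the 9 libraries, Ndufb8, a subunit of respiratory complex I, was most alike (r = 0.96), at 386 to 429 FPKM in sham and TAC together and 334 to 366 in LD. Timm22, Ung and Mmachc (each r = 0.90) and Smyd1 (0.89) came next. Most inverse was Myh11, the smooth muscle myosin heavy chain (r = -0.93), followed by Rbl2 (-0.92), Dusp27 and Rab40b (both -0.91) and Gna12 (-0.89). These r describe genes picked from many as the most extreme and carry no test.

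Markers of several cell types also differed between the groups. The 5 smooth muscle markers, none at 0, summed to 183 to 208 FPKM in sham, 132 to 281 in TAC and 238 to 369 in LD, and their members differed in sign. Myh11 stood at 28.4 to 42.9 in LD and 17.0 to 24.9 elsewhere. Between LD and sham 4 of the 5 were above 0, among them Tagln (0.73 ± 0.30), and 1 was below it, Myocd (-0.57 ± 0.29). Between LD and TAC 3 were above 0 and 2 just below it, Cnn1 (-0.07 ± 0.39) and Myocd (-0.06 ± 0.29). The 6 fibroblast markers, none at 0, summed to 346 to 467 in sham, 550 to 1160 in TAC and 384 to 517 in LD. The 5 erythroid markers, mostly globin genes and none at 0 in every library, summed to 516 to 3340 in sham, 2240 to 11100 in TAC and 1210 to 2270 in LD. All 5 were above 0 between TAC and sham (median log2 difference 1.39) and below 0 between LD and TAC (median -1.37). The 4 atrial markers, none at 0 in every library, summed to 66 to 102 in sham, 99.1 to 451 in TAC and 167 to 554 in LD. Most of each sum was Nppa, at 59.7 to 88.4 in sham, 91.5 to 447 in TAC and 159 to 477 in LD. Between TAC and sham Myl7 (-1.32 ± 1.01) had the opposite sign to Nppa (1.53 ± 0.49). The highest Myl7 (42.3), Myl4 (27.0) and Sln (8.02) were all in LD replicate 3, so the sums do not follow atrial content. The 6 heart muscle markers, none at 0, summed to 24700 to 26400, 20600 to 22400 and 23900 to 36900. Sums of endothelial markers (6 of 6 in the table, none at 0) overlapped, at 761 to 955, 711 to 944 and 651 to 910, and so did those of macrophage markers (6 of 6, none at 0), at 192 to 318, 226 to 320 and 210 to 302. The part of these in the clock values was not tested.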

How the data were processed

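RNA from 9 hearts was sequenced, 1 library per mouse. Per the submitters' processing notes, the build was GRCm38 and the tools HISAT2 2.1.0, Cufflinks 2.2.1, HTSeq 0.7.2, fastp 0.20.0, CASAVA 1.8 and DESeq. No source used here gives the annotation or the role of each tool. Expression was deposited by the authors as FPKM in 1 table and analysed here as log2(FPKM + 1), which understates changes of low genes.

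Genes with at least 1 FPKM in at least 3 libraries (11380, with 9 of the 10 members) entered the test, run in limma 3.58.1 (R 4.3.3). The 3 groups shared 1 fit (6 residual degrees of freedom), with two-sided moderated tests and a trended empirical Bayes prior. Benjamini-Hochberg adjustment ran over all genes tested, with a threshold of 0.05. The fit was tested on simulated data. The labels call the samples biological repeats. The members, lists and tests were chosen with earlier results of these data known. All members are named, of each list genes among the 4 of smallest p in at least 1 comparison, and the 5 genes most and least like the members.

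FPKM values of a gene are whole multiples of 1 count, which gave counts and library totals: all 16262 genes above 0 came out whole within 0.001. The reason for mostly even low counts was not tested. Alternatives changed the pseudocount, filter, scaling, fit and weights, and left out libraries. Positions are from GENCODE M21 on GRCm38, promoter windows from RefSeq (GRCm38.p6). Correlations used Python 3.11.15. The values of 1 clock output gene are not reported here.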

Additional observations from a re-analysis of the deposited data

How the results depend on the processing

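The 10 differences of members with an unadjusted p under 0.05 kept their sign in each of the 21 planned and 2 added settings that gave a value. For most settings this was fixed in advance. In each of the 10 the groups did not overlap, so leaving out libraries could not reverse a sign. Changes of the filter, the trend, the groups fitted or the replicate block left the difference itself unchanged. Leaving out 1 library in turn, Dbp between LD and sham ranged from 1.75 to 2.30, Arntl between LD and TAC from -1.60 to -1.23, and Nr1d1 between LD and TAC from 0.77 to 1.26. Counts of members past the threshold stayed at 0, except in 4 settings between LD and sham. They were 1 with the filter at 5 FPKM, 1 with only the 2 groups compared and 1 without TAC replicate 1. With array quality weights 3 passed (Arntl, Dbp and Nr1d1), and these weights also gave 3 in the test of any group difference. Over all genes, counts between TAC and sham were 2 with the filter at 5 FPKM, 9 with quality weights and 4 by voom on recovered counts. Between LD and sham they were 3, 135 and 3, and 10 with only the 2 groups compared. Leaving out 1 library gave 0 to 13 genes between TAC and sham (13 without TAC replicate 1), 0 to 8 between LD and sham (8 without TAC replicate 1, where 1 member, Dbp, passed) and 0 between LD and TAC. The 45 correlations gave 0 calls in every setting run. Voom and the term for mostly even counts were chosen after seeing the data. The groups share replicate numbers only: same-numbered libraries had r of deviations from -0.24 to 0.15. With the replicate block 0 members and 0 genes passed in each comparison. Nfil3 did not pass the filter at 5 FPKM. All-gene medians between LD and TAC moved from -0.10 to 0.01 with median-of-ratios scaling and -0.19 with equal sums. Recovered counts per library were 51 to 233 for Npas2, 60 to 354 for Nfil3 and 61 to 305 for Per3.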

Other observations

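Immediate early genes are those switched on first after a stimulus, without new protein. Of 24 listed, 22 were tested and 0 passed limma's adjusted threshold. In TAC against sham 11 had an unadjusted p under 0.05 with a lower value and 2 with a higher one (median log2 difference -0.55), beside 2.58% and 2.85% of all genes. In LD against TAC 8 were higher and 2 lower by that measure (median 0.29), beside 2.51% and 6.31% of all genes, and these comparisons share the TAC libraries. In LD against sham 0 were higher and 2 lower (median -0.25, 15 of 22 below 0), beside 1.52% and 3.59% of all genes. The nuclear receptor gene Nr4a1 averaged 11.1 ± 5.57 FPKM (SD, n = 3) in sham, 2.55 ± 0.0953 in TAC and 10.9 ± 7.04 in LD. Fos averaged 7.53 ± 2.0, 2.01 ± 0.756 and 6.38 ± 1.85. Both means were lowest in TAC.

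Of 15 glucocorticoid-responsive genes, 13 were tested and 0 passed. In LD against TAC 3 had an unadjusted p under 0.05 with a lower value, Pdk4, Zbtb16 (-0.85 ± 0.31) and Klf9 (-1.07 ± 0.37), and 2 with a higher one, Dusp1 (1.01 ± 0.29) and Lcn2 (1.56 ± 0.36), beside 6.31% and 2.51% of all genes. In TAC against sham 2 were lower by that measure, Dusp1 (-1.29 ± 0.29) and Lcn2 (-0.86 ± 0.36), and 0 higher, beside 2.58% and 2.85% of all genes. In LD against sham 3 were lower and 0 higher, beside 3.59% and 1.52% of all genes. There Dusp1 differed by -0.28 ± 0.29 and Lcn2 by 0.69 ± 0.36. Pdk4 is also in the list of clock output genes and Dusp1 in that of immediate early genes.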
